A study of Homo sapiens with 6 samples.

Results

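Transcripts of 7 genes of the RAS-ERK cascade, HRAS, NRAS, ARAF, BRAF, MAP2K1, MAP2K2 and MAPK3, were compared between human embryonic stem cells (hESC) and neuromesodermal progenitor-like (NMP-L) cells. The genes were taken by symbol from a table of 27672 genes, and all 7 were among the 15517 genes that passed the expression filter. Other genes of these families did not enter the shares, so every share given below is a share between the 2 named genes only.

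Both conditions came from H9, an established hESC line, so a single genetic background was measured. The hESC libraries (day 0, 3 replicates) were from untreated, feeder-free cells on fibronectin, kept per the labels in DEF medium with bFGF at 30 ng/ml and Noggin at 10 ng/ml. The study's Methods describe hESC culture in a different medium on Geltrex, and which of them applied to these libraries is not given in the sources used here. The NMP-L libraries (day 3, 3 replicates) were from the same line after 3 days in basal medium with N2 and B27, bFGF at 20 ng/ml and CHIR99021, which activates Wnt signalling by inhibiting GSK3, at 3 µM. The study's Methods also describe Noggin and the TGFβ inhibitor SB431542 in the medium over a period that includes day 3. Whether the NMP-L libraries received them is not given in the sources used here. The libraries are labelled as biological replicates, but no source used here says that they were separate differentiations, so the p-values measure the spread between these libraries.

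Sequencing of polyadenylated RNA gave 76 bp single-end reads, and library totals lay between 19454543 and 23036426 expected counts. The labels were checked against marker genes. The 5 hESC markers were all lower in NMP-L libraries, their summed level being 4090 to 4380 TPM in hESC and 2360 to 2510 TPM in NMP-L libraries, with POU5F1, a core pluripotency factor, still at 1127 TPM ± 29.1 (SD, n = 3). Of 6 NMP-L markers 5 were higher, and T (brachyury) went from at most 2 counts a library to between 12.5 and 25.1 TPM. The exception was SOX2, at 219 TPM in hESC and 245 TPM in NMP-L cells (log2 fold change 0.06, edgeR adjusted p = 0.53). Summed markers of paraxial mesoderm were at 13.7 to 17.4 TPM in hESC and 5.28 to 7.29 TPM in NMP-L libraries, those of endoderm at 0.61 to 1.45 and 0.21 to 0.56 TPM, and those of neural cells at 261 to 294 and 158 to 180 TPM. TUBB3, a neuronal tubulin, carried nearly all of the neural sum, with means of 273 and 164 TPM. Of these lists 1, 2 and 2 genes were at or under 3 counts in every library. Among the paraxial mesoderm genes, TBX6 and TCF15 fell. MSGN1 went the other way, from 0 counts in every hESC library to 7, 4 and 2 in NMP-L libraries. None of the 5 endoderm genes passed the filter. Mean TPM of AFP (0.53 to 0) and GATA4 (0.36 to 0.19) fell, while GATA6 (0.06 to 0.14) and HNF4A (0.02 to 0.057) rose. SOX17 had at most 1 count a library. Of the neural genes NEUROG2 and NEUROD1 also went up, from 0 counts in hESC to 1, 0 and 1, and to 2, 3 and 0. In bulk RNA, fewer cells of a type and less RNA per cell cannot be told apart.

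RAS proteins are small GTPases that receptor tyrosine kinases, FGF receptors among them, switch on through exchange factors. Active RAS recruits RAF kinases to the membrane, RAF phosphorylates the MEK kinases, and MEK phosphorylates ERK, which acts on kinases and transcription factors in cytoplasm and nucleus. FGF supports both self-renewal of hESCs and the neuromesodermal state, and in embryos FGF signalling falls as cells leave the caudal region to become neural. The activity of the cascade is set by phosphorylation and GTP loading, which transcript levels do not measure.

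HRAS and NRAS are the gene pair whose shares of TPM did not overlap between the conditions, and their promoters are shown for that reason. How often the shares of other gene pairs separate in this way was not counted. The RefSeq promoter table (assembly GRCh38.p14, whereas the counts were made on hg19) gave 300 bases for each gene, from 250 before to 50 after the start of transcription. The HRAS promoter lies at chr11:535527-535826 and the NRAS promoter at chr1:114716722-114717021, both on the minus strand. Capitals mark GC boxes, written GGGCGG on either strand (CCGCCC in reverse).
HRAS: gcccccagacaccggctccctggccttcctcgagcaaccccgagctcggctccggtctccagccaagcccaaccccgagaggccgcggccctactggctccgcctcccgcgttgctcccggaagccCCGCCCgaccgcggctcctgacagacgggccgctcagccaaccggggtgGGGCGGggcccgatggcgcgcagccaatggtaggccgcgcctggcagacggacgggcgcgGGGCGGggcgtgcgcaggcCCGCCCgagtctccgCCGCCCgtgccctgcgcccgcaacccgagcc
NRAS: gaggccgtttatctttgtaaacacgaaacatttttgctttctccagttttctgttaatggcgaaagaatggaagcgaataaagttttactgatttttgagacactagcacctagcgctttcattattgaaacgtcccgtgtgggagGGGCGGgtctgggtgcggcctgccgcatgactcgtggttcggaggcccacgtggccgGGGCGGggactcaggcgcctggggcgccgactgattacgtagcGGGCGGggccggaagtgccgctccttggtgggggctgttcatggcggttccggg

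The HRAS promoter was 78.0% G and C, above 95.2% of the 27305 promoters in the table, and held 40 CpG and 5 GC boxes. The NRAS promoter was 57.3% G and C, close to the median of 58.3% over all promoters, and held 25 CpG and 3 GC boxes. A GC box stood in 44.6% of all promoters. A promoter rich in G and C was not particular to HRAS among the 7 genes. That of MAPK3 was 80.7% G and C with 8 GC boxes. The richer promoter listed for MAP2K1 was 72.0% with 3, and that for MAP2K2 73.7% with 2. The BRAF and ARAF promoters, at 63.0% and 60.3%, held 0 GC boxes. The CCAAT box (CCAAT or ATTGG), found in 35.7% of promoters, occurred 1 time in the HRAS window and had no match in the NRAS window. The ETS core (CCGGAA or TTCCGG), the sequence recognised by the ETS factors that ERK phosphorylates, was in 17.6% of promoters, with 1 match at HRAS and 2 at NRAS. These are matches of letters, and binding was not measured.

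Of the 7 genes, HRAS, BRAF and ARAF rose in NMP-L cells by edgeR's quasi-likelihood test with Benjamini-Hochberg adjustment over all 15517 genes, and 4 did not pass the adjusted p threshold of 0.05. Calls were common in this comparison, since 55.8% of all tested genes passed the threshold, 29.1% higher in NMP-L cells and 26.7% lower, and read against this background 3 of 7 is no result about the cascade. None of the 7 was called lower, and none was lower at an unadjusted p under 0.05, or by DESeq2 or limma. The median log2 fold change was 0.23 over the 7 genes and 0.03 over all genes tested. In TPM, all NMP-L libraries lay above all hESC libraries for 4 of the 7 (HRAS, ARAF, BRAF and MAPK3), against 38.1% of all tested genes.

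**Figure D1:**
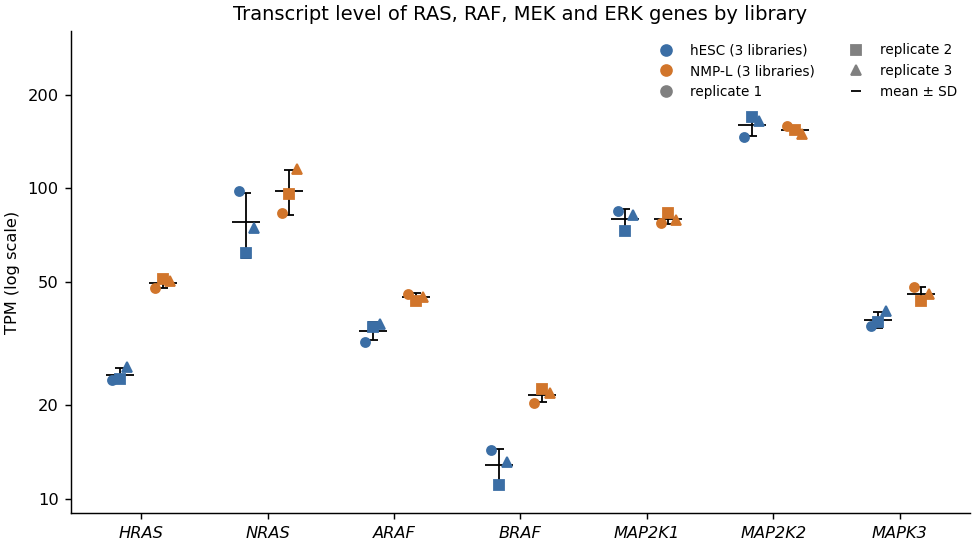
Transcript level of the 7 genes in TPM (log axis) in each of the 3 hESC (blue) and 3 NMP-L (orange) libraries, with marker shape giving the replicate and bars the mean ± SD. HRAS, ARAF, BRAF and MAPK3 do not overlap between the conditions, the MEK genes MAP2K1 and MAP2K2 do, as does NRAS, which has the widest spread between replicates.

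HRAS, a RAS GTPase that is palmitoylated and cycles between Golgi and plasma membrane, had the largest change of the 7. The gene lies at chr11:532242-537321 on the minus strand of GRCh37. Its level was 24.06, 24.32 and 26.64 TPM in the hESC libraries and 47.53, 50.95 and 50.20 TPM in the NMP-L libraries. Each NMP-L library was well above every hESC library, and the means were 25.0 TPM ± 1.42 and 49.6 TPM ± 1.80 (SD, n = 3 each). The log2 fold change was 0.88 (SE 0.11, edgeR adjusted p = 2.98e-05), a 1.84-fold rise. HRAS moved from a level above 65.9% of tested genes in hESC to one above 79.0% in NMP-L cells. An exact permutation test of 3 libraries against 3 gave p = 0.1, two-sided, the smallest p it can give. The rise rests on 220, 237 and 252 counts in hESC and 497, 504 and 528 in NMP-L libraries, so counting error is small beside the change.

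NRAS, a second RAS GTPase (chr1:115247090-115259392, minus strand), was the more abundant of the pair. Its level was 98.1, 61.6 and 74.6 TPM in the hESC libraries and 83.2, 96.1 and 115 TPM in the NMP-L libraries. The ranges overlapped, because hESC replicate 1 lay above NMP-L replicates 1 and 2. The log2 fold change of 0.23 (SE 0.14) had an edgeR adjusted p of 0.185, and the exact permutation p was 0.3. Without hESC replicate 1 the log2 fold change was 0.39 with an edgeR adjusted p of 0.015, the only 1 of 6 fits with a single library omitted that passed the threshold. With a correction for GC content and length it was 0.04 (edgeR adjusted p = 0.6). The cause of this dependence was not tested. NRAS had the largest coefficient of variation of the 7, 23.7% in hESC and 16.3% in NMP-L libraries.

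The share of HRAS in the summed TPM of HRAS and NRAS was 19.7, 28.3 and 26.3% in hESC and 36.4, 34.6 and 30.4% in NMP-L libraries. All NMP-L libraries lay above all hESC libraries, with means of 24.8% ± 4.50 and 33.8% ± 3.08 (SD, n = 3 each) and a difference of 9.03 percentage points (exact permutation p = 0.1, two-sided, the smallest possible). NRAS was thus 3.14-fold ± 0.824 as abundant as HRAS in hESC and 1.98-fold ± 0.282 in NMP-L cells. The summed level of both was 122, 85.9 and 101 TPM in hESC and 131, 147 and 165 TPM in NMP-L libraries, again without overlap (exact permutation p = 0.1). Such separation was common for single genes, with all NMP-L above all hESC libraries in 38.1% of those tested. It was not counted for shares or sums of other gene pairs. The size of the share depended on how length enters, with a difference of 6.13 points for counts per annotated transcript length and 3.36 points for plain expected counts.

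**Figure D2:**
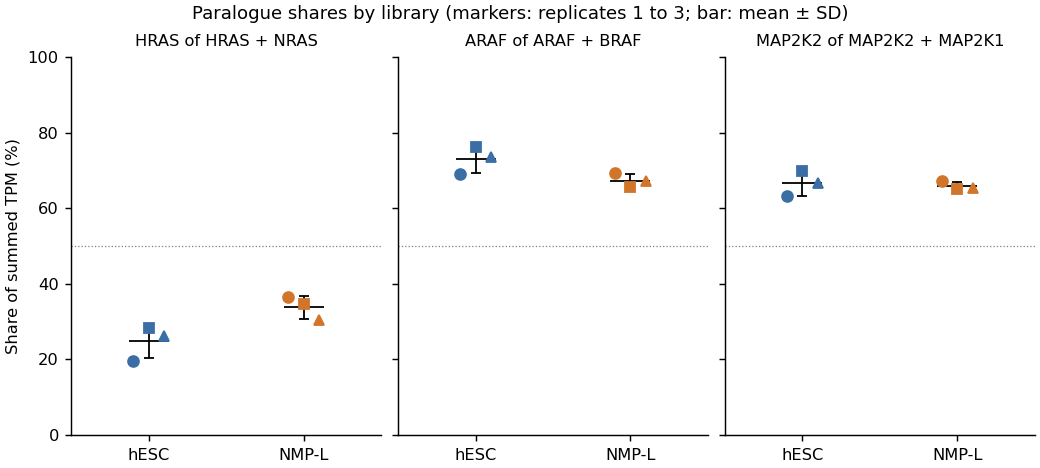
Share of 1 gene in the summed TPM of a pair (percent, axis from 0 to 100) in each library, with marker shape giving the replicate, bars the mean ± SD and the dotted line equal shares. HRAS had a mean share of 24.8% in hESC and 33.8% in NMP-L libraries, without overlap, while the ARAF and MAP2K2 shares overlapped between conditions.

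ARAF and BRAF encode RAF kinases that phosphorylate MEK, BRAF having the higher basal kinase activity. BRAF (chr7:140419127-140624729, minus strand) was at 14.3, 11.1 and 13.2 TPM in hESC and 20.4, 22.6 and 21.8 TPM in NMP-L libraries. The lowest NMP-L value exceeded the highest hESC value, and the means were 12.9 TPM ± 1.63 and 21.6 TPM ± 1.16 (SD, n = 3 each). The log2 fold change was 0.65 (SE 0.11, edgeR adjusted p = 4.22e-04), a 1.57-fold rise, with an exact permutation p of 0.1. Relative to HPRT1 it was 0.36 with an adjusted p of 0.15. BRAF shares 1239 exon bases, 5.3% of its annotated exon bases, with NDUFB2 on the opposite strand, which was at 146 TPM in hESC and 229 TPM in NMP-L cells, and the strand setting of the counting is not given in the sources used here. How far reads from NDUFB2 entered the BRAF counts was not tested.

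ARAF (chrX:47420604-47431307, plus strand) was at 32.0, 35.6 and 36.5 TPM in hESC and 45.7, 43.2 and 44.7 TPM in NMP-L libraries. The groups did not overlap, with means of 34.7 TPM ± 2.36 and 44.6 TPM ± 1.28 (SD, n = 3 each). The log2 fold change was 0.28 (SE 0.10, edgeR adjusted p = 0.0287), a 1.21-fold rise. This was the weakest of the 3 calls. It passed the threshold in 10 of 18 alternatives and in 2 of 6 fits with a single library omitted, and without hESC replicate 1 the log2 fold change was 0.18 (edgeR adjusted p = 0.11). Relative to HPRT1 it was -0.03.

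ARAF remained the more abundant of the RAF pair in every library. Its share of the summed TPM of ARAF and BRAF was 69.1, 76.2 and 73.5% in hESC and 69.2, 65.6 and 67.2% in NMP-L libraries. The ranges met at hESC replicate 1, and the difference of -5.58 points had an exact permutation p of 0.2. The sum itself was 46.3, 46.7 and 49.6 TPM in hESC and 66.1, 65.8 and 66.6 TPM in NMP-L libraries, a separation larger than the spread in either group (47.6 TPM ± 1.80 and 66.2 TPM ± 0.382, SD, n = 3 each, exact permutation p = 0.1). It follows from ARAF and BRAF, each of which lay higher in all NMP-L libraries, as did 38.1% of all tested genes. Separation of sums of other gene pairs was not counted.

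MAP2K1 and MAP2K2 encode MEK1 and MEK2, dual-specificity kinases that activate ERK. MAP2K1 (chr15:66679175-66783994, plus strand) was at 84.5, 72.8 and 82.0 TPM in hESC and 77.2, 82.9 and 79.0 TPM in NMP-L libraries. The groups overlapped and the means were 79.8 TPM ± 6.14 and 79.7 TPM ± 2.92 (SD, n = 3 each), with a log2 fold change of -0.10 (SE 0.08, edgeR adjusted p = 0.348). Of its annotated exon bases 20.5% overlap a long non-coding gene on the opposite strand.

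MAP2K2 (chr19:4090319-4124119, minus strand) had the highest level of the 7 in both conditions. It was at 146, 170 and 164 TPM in hESC and 158, 154 and 149 TPM in NMP-L libraries, overlapping, with means of 160 TPM ± 12.5 and 154 TPM ± 4.59 (SD, n = 3 each). The log2 fold change was -0.15 (SE 0.09, edgeR adjusted p = 0.173). Without hESC replicate 1 it was -0.25 and passed the threshold (edgeR adjusted p = 0.021). It was also the only one of the 7 with fractional expected counts.

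The balance within the MEK pair did not differ beyond the spread between libraries. MAP2K2 made up 63.3, 69.9 and 66.7% of the summed TPM of MAP2K1 and MAP2K2 in hESC and 67.2, 65.0 and 65.4% in NMP-L libraries. The difference of -0.795 points (exact permutation p = 0.8) was smaller than the SD in either condition, 3.32 and 1.18 points. The sum was 240 TPM ± 8.40 in hESC and 233 TPM ± 4.75 in NMP-L cells (SD, n = 3 each, exact permutation p = 0.3). The MEK sum was 4.97, 5.19 and 4.96 times the ARAF and BRAF sum in hESC and 3.56, 3.6 and 3.42 times in NMP-L libraries, without overlap (exact permutation p = 0.1), a ratio taken up after the values were seen. How often such ratios of other genes separate was not counted.

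MAPK3 (chr16:30125426-30134827, minus strand) encodes ERK1. It was at 35.9, 37.2 and 40.1 TPM in hESC and 48.2, 43.3 and 45.7 TPM in NMP-L libraries. No NMP-L library lay below an hESC library, but the log2 fold change of 0.18 (SE 0.10) did not pass the threshold (edgeR adjusted p = 0.137). It passed in 5 of 18 alternatives, among them a GC and length correction, with 0.42, and limma on log2(TPM + 1), with 0.27.

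In hESC the order of the levels per length was MAP2K2, MAP2K1, NRAS, MAPK3, ARAF, HRAS and BRAF, and the ranges of MAP2K1 and NRAS, and of MAPK3 and ARAF, overlapped. In NMP-L cells NRAS stood above MAP2K1, and HRAS, MAPK3 and ARAF followed. There the range of MAPK3 overlapped those of HRAS and ARAF, while HRAS lay above ARAF in every library. In hESC libraries HRAS had been below both. BRAF had the lowest TPM in both conditions.

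**Figure D3:**
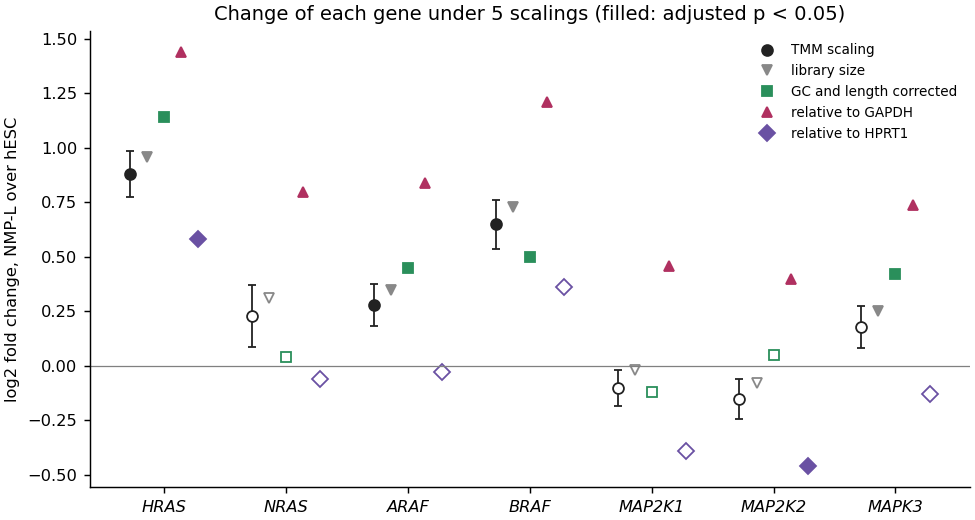
Log2 fold change of each gene, NMP-L over hESC, under 5 scalings, with filled symbols for an adjusted p under 0.05 and bars for the standard error of the TMM fit. HRAS was above 0 and called under each of these scalings (0.58 to 1.44), and the other genes changed their call with the scaling.

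The direction of several genes depended on the scaling. Scaling to GAPDH moved the median gene to 0.59 on the log2 scale and scaling to HPRT1 to -0.27. Relative to that median, HRAS was at 0.85 to 0.86, BRAF at 0.62 to 0.63, ARAF at 0.24 to 0.25, NRAS at 0.20 to 0.21, MAPK3 at 0.14 to 0.15, MAP2K1 at -0.13 to -0.12 and MAP2K2 at -0.19 to -0.18 under TMM, library size, GAPDH and HPRT1. The libraries also differed in the level of genes by their GC content, read as deviation in log2 CPM from each gene's mean. In hESC replicate 1 the median deviation of genes under 40% GC was 0.12 and that of genes over 60% GC 0.01, against -0.24 and 0.21 in hESC replicate 2 and 0.24 and -0.24 in NMP-L replicate 3. NRAS (37.4% GC) and HRAS (62.7% GC) are at opposite ends. With the correction for GC and length HRAS was at 1.14, BRAF at 0.50, ARAF at 0.45 and NRAS at 0.04, and the part of GC content in the levels of single libraries was not tested further.

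The genes around the cascade were read from 8 lists of 98 genes, of which 97 were tested. Of these 26 were higher, 28 lower and 43 not called, so 55.7% passed the threshold against 55.8% of all genes. The median log2 fold change of each list stands beside 0.03 for all genes. In each of the 8 lists more genes were called higher than lower relative to GAPDH, and more lower than higher relative to HPRT1, so the counts by direction hold for TMM scaling. Over all lists the higher and lower genes numbered 68 and 5 of 97 relative to GAPDH and 6 and 34 relative to HPRT1. Over all 15517 genes they numbered 10027 and 1428 relative to GAPDH and 1793 and 5294 relative to HPRT1. The shift by scaling was thus one of the whole table and no result about the lists.

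Adaptors and exchange factors, which couple receptors to RAS, had 4 higher and 3 lower of 16 tested, with a median log2 fold change of 0.19. RASGRP1, an exchange factor that responds to diacylglycerol, rose from 0.963 TPM ± 0.214 to 4.50 TPM ± 0.557 (log2 fold change 2.11, SE 0.17, edgeR adjusted p = 1.46e-06). RASGRP2, which acts mainly on RAP1, fell from 24.7 TPM ± 2.84 to 11.4 TPM ± 2.07 (-1.22, SE 0.15, edgeR adjusted p = 3.37e-05). RAS GTPase-activating proteins, which switch RAS off, had 2 higher and 5 lower of 10, with a median of -0.11. RASAL3 fell from 1.73 TPM ± 0.289 to 0.187 TPM ± 0.112 (-3.39, SE 0.38, edgeR adjusted p = 1.77e-05), and RASA4, which also had fractional expected counts, was higher by 0.75. RASAL3 had 41, 49 and 56 counts in hESC but 2, 4 and 10 in NMP-L libraries, so it passed the filter through hESC alone. The size of its fall rests on few counts and was -1.2 by limma on log2(TPM + 1).

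Genes for the lipid processing of RAS had 4 higher and 2 lower of 11 (median 0.11). FNTB, the beta subunit of farnesyltransferase, rose by 1.19 from fractional expected counts, and the depalmitoylase ABHD17B fell by 0.57. RAS-related GTPases had 2 higher and 4 lower of 11 (median -0.01). RRAS fell from 32.5 TPM ± 4.67 to 8.60 TPM ± 1.60 (log2 fold change -2.01, SE 0.16, edgeR adjusted p = 1.32e-06), and RAP2C was higher by 0.66.

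Scaffolds and modulators had 6 higher and 4 lower of 13 (median 0.24). CNKSR3, a scaffold protein, rose by 1.63 and PAQR3, a Golgi protein that retains RAF, by 1.05, while IQGAP1, a scaffold for MEK and ERK, fell by 0.83. The 14-3-3 proteins and chaperones, which bind and stabilise RAF, had 1 higher and 5 lower of 9 (median -0.20). YWHAZ was higher by 0.43, and YWHAG fell by 0.55 under TMM but was at 0.01 relative to GAPDH.

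ERK substrate kinases and ETS substrates had 2 higher and 2 lower of 11 (median 0.09), with ELK3 at 0.32, called in 9 of 18 alternatives, and MKNK1 at -0.58. The parallel MAP kinase cascades had 5 higher and 3 lower of 16 (median 0.04). MAPK4, an atypical MAP kinase, rose by 1.66 and MAPK11, a p38 kinase, fell by 1.3. Of the genes named from the lists, ABHD17B, IQGAP1, MKNK1 and YWHAG were not called relative to GAPDH, and RASA4, RAP2C, YWHAZ and ELK3 were not called relative to HPRT1.

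**Figure D4:**
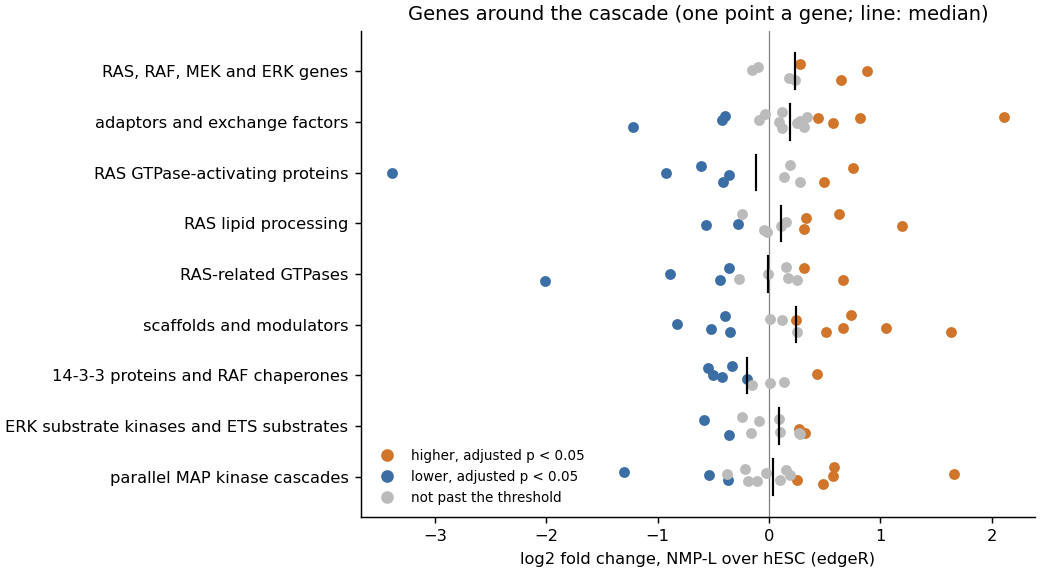
Log2 fold change, NMP-L over hESC (edgeR), of each tested gene of the 7 cascade genes and of 8 lists around them, orange or blue where called higher or lower, with a line at each median. RASAL3 (-3.39) and RASGRP1 (2.11) lie farthest from 0, and the medians of the lists lie between -0.20 and 0.24. RASAL3 had only 2, 4 and 10 counts in the NMP-L libraries.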

How the data were processed

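RNA from 3 hESC and 3 NMP-L libraries was analysed. Expected counts from RSEM, by gene symbol and library, were deposited by the authors and not normalized between libraries. The same deposited table holds TPM, which RSEM scales by effective transcript length to 1000000 per library. The submitters' processing notes name cutadapt 1.9.1, STAR 2.5.2a, RSEM 1.3.0 and DESeq2 1.12.3 with hg19, while the annotation release and strand setting are not given in the sources used here.

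Counts were rounded to whole numbers, filtered by filterByExpr (minimum count 10), given TMM factors and tested by edgeR 4.0.16 in R 4.3.3 (glmQLFit, glmQLFTest). Genes with an adjusted p under 0.05 were called. The standard error is the log2 fold change divided by the square root of F. Shares and single values were compared by exact permutation tests (SciPy 1.17.1), and 3 libraries against 3 cannot give a p below 0.1. GC content and length (GENCODE on GRCh37) were known for 93.6% of tested genes, and corrections used lowess with a span of 0.3. DESeq2 1.42.0 and limma 3.58.1, on log2(TPM + 1), served as alternatives. The edgeR steps were tested on simulated data.

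The 7 genes and the 8 pathway lists were chosen with earlier results of these data known. The genes named from each list are the called gene with the largest rise and the one with the largest fall, and any further called gene past 2-fold. The library totals cover counting depth only, with a floor of 3 counts equal to between 0.130 and 0.154 CPM. No batch is given in the labels, so none was modelled.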

Additional observations from a re-analysis of the deposited data

How the results depend on the processing

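All 18 alternatives to the gene tests were run. HRAS was called in 18 of 18, with a log2 fold change of 0.58 to 1.44, and BRAF in 17. The number of cascade genes called, 3 at first, was 7 relative to GAPDH (7 higher) and 2 relative to HPRT1 (1 higher, 1 lower), 2 with DESeq2, with upper-quartile factors and with the replicate block, 4 with library size, with limma and with the GC and length correction, and 2 to 4 when a library was left out (2 to 3 higher, 0 to 1 lower). Relative to GAPDH 11455 of all 15517 tested genes were called, 87.5% of them higher. Relative to HPRT1 7087 were called, 25.3% of them higher. The count over all genes was 8653 at first, 8585 with upper-quartile factors and 7560 with the replicate block. It was 8910 with library size, 8740 with limma and 9878 with the GC and length correction. DESeq2 called 8246 of 20918 genes, and fits without 1 library called 7255 to 8891. NRAS was at -0.06, ARAF at -0.03 and MAPK3 at -0.13 relative to HPRT1. MAP2K1 was at 0.46 relative to GAPDH and 0.00 with limma, and MAP2K2 at 0.40 relative to GAPDH and 0.05 with the GC and length correction, also with the replicate block. YWHAG was at 0.01 relative to GAPDH. The cause was not tested. RASAL3 had no value where 10 counts were required in every library. Genes called in the lists went from 7 to 14 in adaptors, from 4 to 9 in ERK substrates and from 8 to 13 in parallel MAP kinases relative to GAPDH, and from 10 to 6 in scaffolds relative to HPRT1.

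Same-numbered libraries deviated with correlations of -0.37, -0.06 and -0.13. Deviations centred within 3 libraries a condition cannot decide whether same-numbered libraries came from the same experiment. Under the replicate block ARAF was at 0.28 with an edgeR adjusted p of 0.092, lipid processing had 3 calls and ERK substrates 2, and the HRAS share difference was 9.03 points (exact sign-flip p = 0.25, the smallest possible). Leaving out a library gave 2 to 6 calls in ERK substrates. The HRAS share difference was 6.49 to 10.8 points and the MAP2K2 one -2.47 to 0.857. It was 3.36 points for HRAS with expected counts. With 3 libraries a condition, a missed threshold does not show that levels were alike.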

Other observations

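Across the 6 libraries the genes whose centred log2 CPM lay closest to that of HRAS, among 10117 genes with at least 10 CPM, were TUBE1 (root mean square difference 0.0414), GAB2 (0.0439) and PLEKHA7 (0.0460). TUBE1 encodes a tubulin, GAB2 a docking protein downstream of receptor tyrosine kinases, and PLEKHA7 a junction protein. Their log2 fold changes were 0.84, 0.82 and 0.88. The genes closest to MAP2K2 were MYBL2 (0.0166), ZNF263 (0.0171) and CSNK2B (0.0279), with log2 fold changes of -0.15, -0.14 and -0.18. These are descriptions over 6 libraries that share 2 conditions.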
